A study of Mus musculus with 12 samples.

Results

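The propionate to succinyl-CoA pathway was examined in the ventricular wall of mice that lacked the complex II assembly factor SDHAF4 in muscle. Its 7 members, Pcca, Pccb, Mcee, Mut, Mmaa, Mmab and Mmachc, were found by gene name, each on a single row of a table of 43686 rows, and all 7 passed the filter on low counts that left 17155 rows for testing. The controls (WT, n = 6) carried floxed Sdhaf4 alleles without Cre (Sdhaf4fl/fl), and the mutants (KO, n = 6) were Sdhaf4fl/fl mice with the Ckmm-Cre transgene, which the muscle creatine kinase promoter drives in heart and skeletal muscle. All mice were C57BL/6 by the labels and C57BL/6J by the methods. The labels give an age of 2 months, the study's main text a younger age for these hearts, and its reporting summary a still younger age and one close to the labels' for omics work. The labels call the mutants Sdhaf4-/- without naming the Cre. The RNA came from ventricular wall tissue by the methods and from left ventricles by a supplementary legend, so other cell types contributed to it. Neither the labels nor the methods state that every library came from a different mouse, and p-values measure the spread between these libraries.

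Propionyl-CoA arises in the mitochondrial matrix from valine, isoleucine, methionine, threonine and fatty acids of odd chain length. Propionyl-CoA carboxylase, a biotin enzyme built of PCCA and PCCB subunits, turns it into methylmalonyl-CoA. An epimerase (MCEE) and a vitamin B12 dependent mutase (MUT, also called MMUT) then make succinyl-CoA, which enters the TCA cycle upstream of complex II. The mutase works with adenosylcobalamin, which MMACHC, MMAB and MMAA prepare and deliver, and inherited loss of these proteins causes propionic or methylmalonic aciduria, in which the heart can be affected.

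The libraries held 23747014 to 27159228 counted reads in WT and 26542930 to 31393393 in KO, and the members had between 404 and 4608 reads in any library. Levels are given as CPM (counts scaled to library size after TMM normalization) and changes as log2 fold changes of KO against WT. Sdhaf4 itself, the targeted gene, lay between 14.3 and 30.3 CPM in the WT hearts and between 2.25 and 2.73 CPM in the KO hearts. KO replicate 3 stood apart: its summed level of 10 cardiomyocyte markers, 68840 CPM, was the highest of the 12 libraries (WT 61210 to 68400 CPM, lowest KO 48300 CPM), so the members' changes and the ratios that differed are also given without it. Of these 10 markers, 6 were lower and 1 higher in KO, whereas all 8 fibroblast markers were higher, with a summed level of 1420 to 1670 CPM in WT and 2584 to 4867 CPM in KO. Of the 8 skeletal muscle fibre markers 5 could be tested, 3 of which were lower and 1 higher, with a summed level of 2212 to 2417 CPM in WT and 1829 to 2890 CPM in KO. Ckm (2118 CPM in WT, 1095 CPM in KO) and Acta1 (176.5 CPM in WT, 1215 CPM in KO), both also expressed in heart, made up most of that sum, Tnni2 and Mylpf were lower, and Myh1 and Myh2 were under 1 CPM in every library, as was hepatocyte Alb. In RNA from whole tissue, fewer cells of a type and less RNA per cell cannot be told apart.

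Transcripts of all 7 members were lower in the KO hearts. Each passed at 0.05 by edgeR's quasi-likelihood test (adjusted by Benjamini-Hochberg over 17155 rows), and none was higher, where 25.5% of all rows tested were lower and 25.6% higher. The median log2 fold change of the members was -0.80, against 0.00 over all rows. At the stricter thresholds of the study's methods (0.005 for the adjusted p, 1 for the size of the log2 fold change), Mut and Mcee remained, 2 of 7, where 4.87% of all rows were lower. For 6 of the 7 members every KO heart lay below every WT heart, where this held for 15.2% of all rows.

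**Figure D1:**
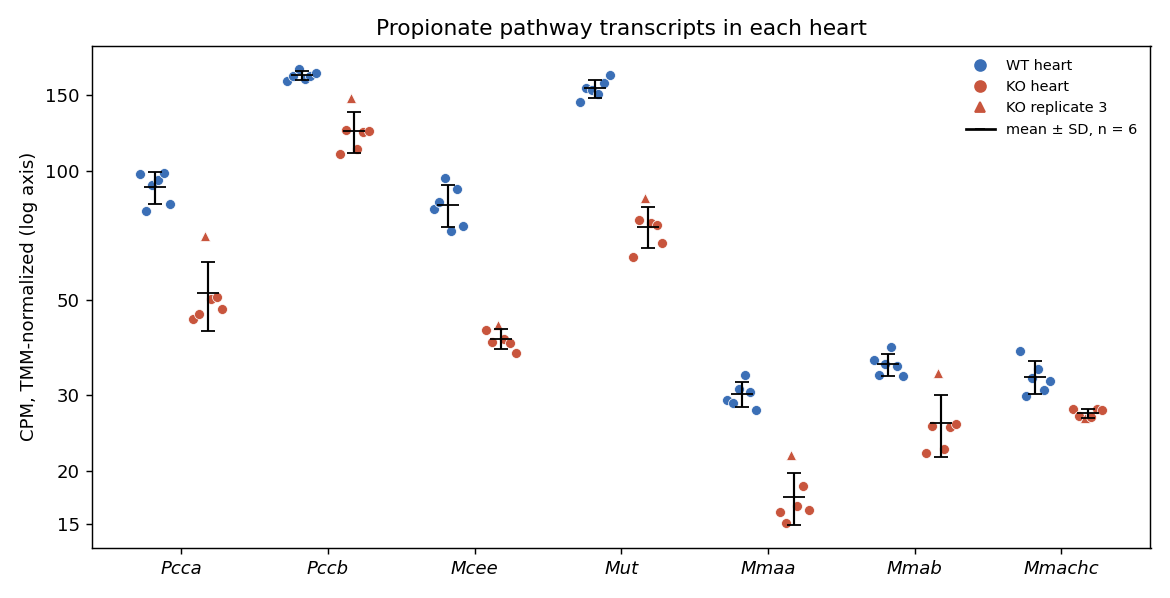
Level of each member in every heart, in CPM on a log axis, with WT in blue, KO in red, KO replicate 3 as a triangle and bars for the mean ± SD (n = 6). The KO hearts sit below the WT hearts for every gene but Mmab, where KO replicate 3 at 33.8 CPM lay above the lowest WT heart, and the distance is widest for Mut and Mcee.

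The carboxylase was examined first. Pcca encodes the subunit that carries biotin (MGP_C57BL6NJ_G0022080, C57BL/6NJ assembly, chromosome 14, 125066588 to 125456764, plus strand). It ranged from 80.6 to 98.7 CPM in the WT hearts (median 94.0) and from 45.1 to 70.6 CPM in the KO hearts (median 49.0). The groups did not overlap, and the highest KO value was that of replicate 3, with the other KO hearts at or below 50.8 CPM. The means were 91.5 ± 7.68 CPM in WT and 51.8 ± 9.47 CPM in KO (SD, n = 6). The log2 fold change was -0.82 (standard error 0.10, adjusted p = 5.54e-06, edgeR), and it was -0.94 without KO replicate 3. The span of Pcca shares 76703 bases with Ggact on the other strand, and Ggact was at 9.65 ± 0.968 CPM in WT and 11.3 ± 0.871 CPM in KO, a change in the opposite direction (log2 fold change 0.225, adjusted p = 0.0414).

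Pccb encodes the carboxyltransferase subunit (MGP_C57BL6NJ_G0035674, chromosome 9, 105376844 to 105441688, minus strand). It ranged from 162 to 173 CPM in the WT hearts (median 166.5) and from 110 to 148 CPM in the KO hearts (median 124). The WT hearts lay close together and the KO hearts below them, with replicate 3 again the nearest. The log2 fold change was -0.43 (standard error 0.06, adjusted p = 1.7e-05), or -0.50 without that library. The KO level was 74.1% of the WT level for Pccb and 56.6% for Pcca.

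The epimerase and the mutase showed the largest changes. Mcee (MGP_C57BL6NJ_G0032822, chromosome 7, 68356196 to 68383539, plus strand) encodes methylmalonyl-CoA epimerase. It ranged from 72.3 to 96.1 CPM in the WT hearts (median 83.0) and from 37.6 to 43.6 CPM in the KO hearts (median 40.2). The spread between the KO hearts was narrow (SD 2.16 CPM, n = 6), and KO replicate 3 stood with the others. Its log2 fold change was -1.03 (standard error 0.07, adjusted p = 3.02e-09) and -1.06 without that replicate.

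Mut (MGP_C57BL6NJ_G0024169, chromosome 17, 43614211 to 43640852, plus strand) encodes the mutase that yields succinyl-CoA. It ranged from 145 to 167 CPM in the WT hearts (median 155) and from 63.1 to 86.6 CPM in the KO hearts (median 75.3). A gap of 58.4 CPM separated the lowest WT heart from the highest KO heart. The log2 fold change was -1.07 (standard error 0.07, adjusted p = 1.49e-09), which put the KO level at 47.7% of the WT level, and it was -1.12 without KO replicate 3. The first 363 bases of the gene are shared with Cenpq on the other strand, and no source says whether reads were counted by strand, so those there could belong to either gene.

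The cofactor genes Mmachc, Mmab and Mmaa were also lower, each by less than Mcee and Mut on the log2 scale. MMACHC trims and carries cobalamin in the cytosol (MGP_C57BL6NJ_G0029055, chromosome 4, 122169520 to 122176286, minus strand). Mmachc ranged from 29.95 to 38.1 CPM in the WT hearts (median 32.7) and from 26.5 to 27.9 CPM in the KO hearts (median 27.2). The groups were separated by 2.07 CPM only, and the KO hearts were close to each other (SD 0.640 CPM against 2.91 CPM in WT). This was the smallest change among the members, at -0.28 on the log2 scale (standard error 0.06, adjusted p = 0.000769), and KO replicate 3 did not move it (-0.28 without).

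MMAB adds the adenosyl group in the mitochondrion (MGP_C57BL6NJ_G0030368, chromosome 5, 121692066 to 121706650, minus strand). Mmab ranged from 33.2 to 38.8 CPM in the WT hearts (median 35.3) and from 21.97 to 33.8 CPM in the KO hearts (median 25.4). Here the groups overlapped, through KO replicate 3 alone, since the other KO hearts were at or below 25.7 CPM. Its log2 fold change was -0.46 (standard error 0.09, adjusted p = 0.000338), and -0.56 without that library.

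MMAA is the GTPase that loads the cofactor onto the mutase and protects it (MGP_C57BL6NJ_G0034307, chromosome 8, 83001606 to 83017970, minus strand). Mmaa ranged from 27.7 to 33.5 CPM in the WT hearts (median 29.9) and from 15.1 to 21.7 CPM in the KO hearts (median 16.4). The groups did not overlap, and KO replicate 3 was the highest KO heart. The log2 fold change was -0.80 (standard error 0.08, adjusted p = 5.28e-07), and -0.87 without that heart.

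**Figure D2:**
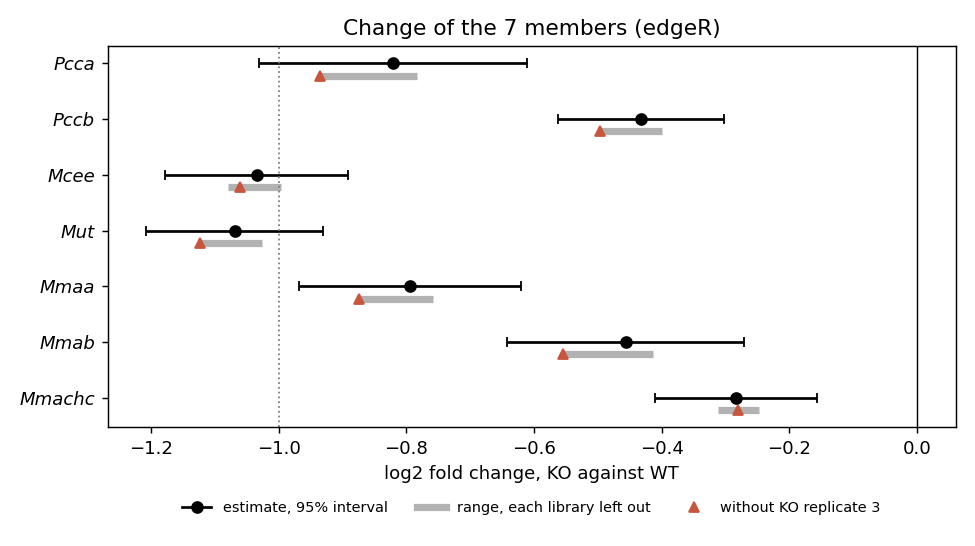
Log2 fold change of each member (x axis, KO against WT) with its 95% interval, the range over the 12 fits that each left out 1 library in grey, and the value without KO replicate 3 as a triangle; the dotted line marks -1. No interval reaches 0, and the intervals of Mut (-1.21 to -0.93) and Mcee (-1.18 to -0.89) lie below that of Mmachc (-0.41 to -0.16).

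Leaving out each library in turn changed no call among the 7 members at 0.05. KO replicate 3 had the highest KO level for 6 of the 7 members, Mmachc being the exception. Between the mean of the other KO hearts and the WT mean, it lay a fraction of 0.858 of the way for Mmab, 0.605 for Pccb and 0.519 for Pcca, but 0.179 for Mut and 0.0832 for Mcee. At the stricter thresholds, only Mut passed without WT replicate 3, because the log2 fold change of Mcee was then -0.996.

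Since cardiomyocyte markers also differed, the members were set against the summed markers of the same library, a scaling chosen after the marker sums had been seen. On that scale the difference between KO and WT was -0.81 for Mut, -0.76 for Mcee, -0.57 for Pcca, -0.54 for Mmaa, -0.20 for Mmab and -0.17 for Pccb in log2 units. Every KO heart lay below every WT heart for these 6 genes, Mmab included (two-sided exact permutation test, p = 0.00216 for each, the smallest p that 6 against 6 allows). The share of all rows for which this held on that scale was not computed. The margin was narrow for Pccb (highest KO -8.709, lowest WT -8.705) and for Mmab (highest KO -10.991, that of KO replicate 3, lowest WT -10.968). For Mmachc the difference was -0.01 (p = 0.950 by the same exact test), with overlapping groups. Its lowest KO value (-11.344) was that of KO replicate 3. The differences on this scale were not computed without that library, whose marker sum was the highest. The marker sum mixes genes that changed in both directions, from Atp2a2 (log2 fold change -0.99) to Mybpc3 (1.05). It is therefore not a measure of cardiomyocyte number. The part that the cell makeup had in the members' levels was not tested further.

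Levels between genes were compared per length, as the FPKM that the authors deposited. These FPKM do not follow the gene lengths listed in the table for every member. Per base of the listed lengths, Mut (155.6 CPM in WT, 3675 bases) would lie above Pcca (91.5 CPM, 2592 bases). The order given here is therefore that of the deposited FPKM only. In the WT hearts Mcee (160 ± 16.4 FPKM) and Pccb (142 ± 4.57 FPKM) were the highest members, and their ranges overlapped. Pcca followed at 106 ± 7.19 FPKM and Mut at 42.3 ± 2.58 FPKM, each apart from its neighbours in the order (SD, n = 6). The cofactor genes were lowest, Mmachc at 25.6 ± 2.20, Mmaa at 21.8 ± 1.17 and Mmab at 21.5 ± 1.00 FPKM, and adjacent ranges among these 3 overlapped. In the KO hearts Pccb (105 ± 9.07 FPKM) stood above Mcee (78.2 ± 4.42 FPKM) in every library. Mut, at 20.2 ± 2.03 FPKM, was then within the range of Mmachc, at 21.1 ± 0.798 FPKM, whereas in WT every library had Mut above Mmachc. That overlap depends on the lengths behind the FPKM. Per base of the listed lengths, Mut in KO (63.1 to 86.6 CPM, 3675 bases) would stay above Mmachc (26.5 to 27.9 CPM, 2106 bases).

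Whether members changed by unequal amounts was tested with 5 ratios of CPM within a library, which do not depend on how the library is scaled (two-sided exact permutation tests over the 12 hearts, adjusted over the 5 ratios). The ratio of Pcca to Pccb, the subunits of the carboxylase, ranged from -1.05 to -0.72 in log2 units in the WT hearts and from -1.43 to -1.07 in the KO hearts. The groups did not overlap. The difference was -0.40 (standard error 0.08, exact permutation p = 0.00216, adjusted p = 0.00541), so the Pcca transcript fell by more than that of Pccb, and it was -0.435 without KO replicate 3.

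The ratio of Mmab to Mut rose, from between -2.33 and -1.96 in WT to between -1.75 and -1.36 in KO, a difference of 0.605 in log2 units (standard error 0.08, exact permutation p = 0.00216, adjusted p = 0.00541). The ratio of Mmaa to Mut was higher by 0.27 (standard error 0.08, exact permutation p = 0.0152, adjusted p = 0.0253), with groups that overlapped. Without KO replicate 3 the difference was 0.571 for the Mmab/Mut ratio and 0.251 for the Mmaa/Mut ratio. The ratio of Mcee to Mut differed by 0.05 (standard error 0.10, exact permutation p = 0.643), and with single libraries left out this difference ran from -0.01 to 0.09. The ratio of Mmachc to Mmab differed by 0.19 (standard error 0.11, exact permutation p = 0.104, adjusted p = 0.130) and by 0.28 without KO replicate 3 (exact permutation p = 0.00433, unadjusted).

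**Figure D3:**
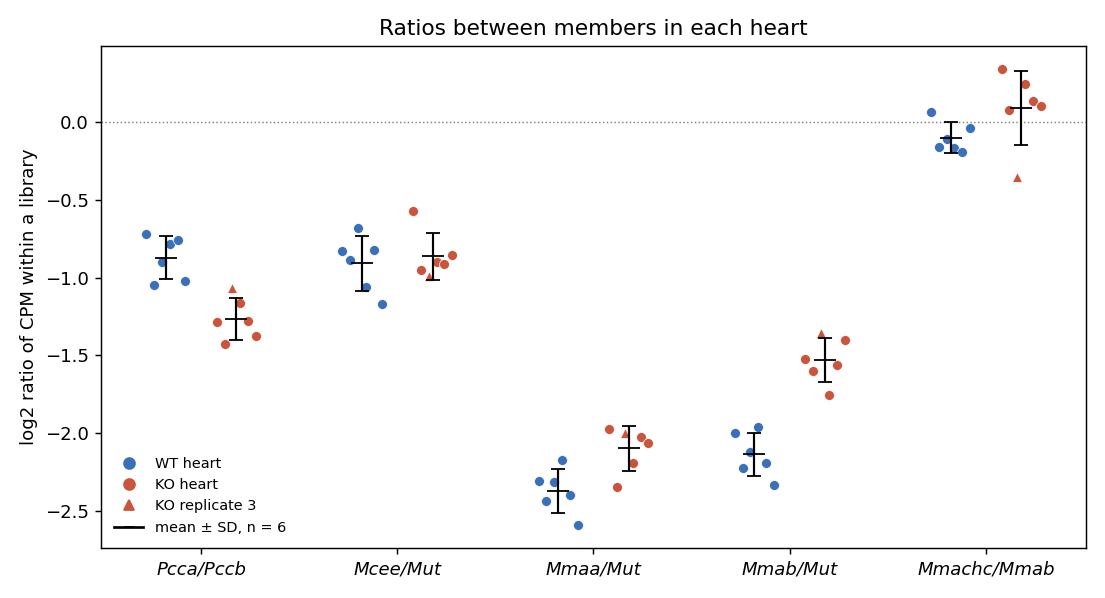
Log2 ratio of the CPM of 2 members within each library (y axis) for the 5 pairs, with WT in blue, KO in red, KO replicate 3 as a triangle and bars for the mean ± SD (n = 6). WT and KO are apart for Pcca/Pccb and Mmab/Mut, and they overlap for the other 3 pairs.

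Mcee, Mut, Mmab and Mmachc each lie head to head with a gene on the other strand, with starts within 1000 bases in the table's annotation. Mvk, which encodes mevalonate kinase of the sterol pathway, starts 209 bases from Mmab, and Ccdc163 starts 192 bases from Mmachc. Mphosph10, which encodes a ribosomal RNA processing protein, starts 339 bases from Mcee, and the start of Cenpq, a centromere protein gene, lies 362 bases inside Mut. In the GRCm38.p6 promoter windows of RefSeq (250 bases before to 50 after the start), the window of Mmab shares 259 of its 300 bases with that of Mvk, and the window of Mmachc shares 291 with that of Ccdc163. The Mmab and Mmachc windows are printed here because each holds the annotated starts of both a member and its partner, 5′ to 3′ on the minus strand, chr5:114443978-114444277 and chr4:116708336-116708635. Capitals mark the letters CCAAT, on either strand, in Mmab and ACTACANNT, on either strand, in Mmachc.

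Mmab: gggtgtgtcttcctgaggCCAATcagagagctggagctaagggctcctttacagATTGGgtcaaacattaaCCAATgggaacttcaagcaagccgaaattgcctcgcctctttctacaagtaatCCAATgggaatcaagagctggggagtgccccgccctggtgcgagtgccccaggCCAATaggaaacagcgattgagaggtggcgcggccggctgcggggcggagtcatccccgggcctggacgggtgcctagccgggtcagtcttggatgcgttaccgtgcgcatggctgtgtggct
Mmachc: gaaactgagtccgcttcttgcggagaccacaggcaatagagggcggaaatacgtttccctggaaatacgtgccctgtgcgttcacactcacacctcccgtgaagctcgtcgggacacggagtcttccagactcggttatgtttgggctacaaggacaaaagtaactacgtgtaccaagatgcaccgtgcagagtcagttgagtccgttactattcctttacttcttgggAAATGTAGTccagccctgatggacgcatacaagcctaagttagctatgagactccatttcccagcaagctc

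The Mmab window holds CCAAT 5 times, and 37.4% of all 32851 windows hold it at least 1 time. Mmachc has the letters ACTACANNT, part of the site written for THAP11 and ZFP143, 1 time, and 4.16% of all windows hold them. Windows were at hand for 6 of the 7 members (8 windows), and none for Mmut. Searched on both strands, CCAAT stood in 4 of the 8 windows (Mcee, Mmab and Pcca), the GC box GGGGCGGGG in 3 (Mcee, Mmaa and Pcca; 11.5% of all windows) and the NRF1 letters GCATGCGC in 1 (Pccb; 2.71%). The letters AAGGTCA (4.72% of all windows), which lie within the ERR element TNAAGGTCA (1.28%), and the ETS letters CCGGAAG (8.86%) stood in none of the 8. A match is a description of the letters only.

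All 4 partners were lower in the KO hearts as well. Mphosph10 was at 19.7 ± 3.05 CPM in WT and 14.1 ± 1.25 CPM in KO (SD, n = 6), and its log2 fold change was -0.49 (adjusted p = 0.000523, edgeR). Cenpq had a log2 fold change of -0.64 (adjusted p = 0.000506) and lay between 8.78 and 10.6 CPM in WT and between 3.97 and 7.98 CPM in KO. Mvk changed by an amount close to that of Mmab, from 8.33 ± 1.03 to 6.18 ± 0.932 CPM (log2 fold change -0.43, adjusted p = 0.00525). The log2 fold change of Ccdc163 was -0.41 (adjusted p = 0.0117), with 3.77 ± 0.449 CPM in KO against 5.02 ± 0.633 CPM in WT. Among 860 other cases of a lower row with a tested head-to-head partner, 32.6% of the partners were lower, and 25.5% of all rows were. Prdx1, whose antioxidant gene lies next to Mmachc and does not face it, was at 199 ± 15.6 CPM in WT and 188 ± 13.1 CPM in KO (log2 fold change -0.08, adjusted p = 0.306).

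**Figure D4:**
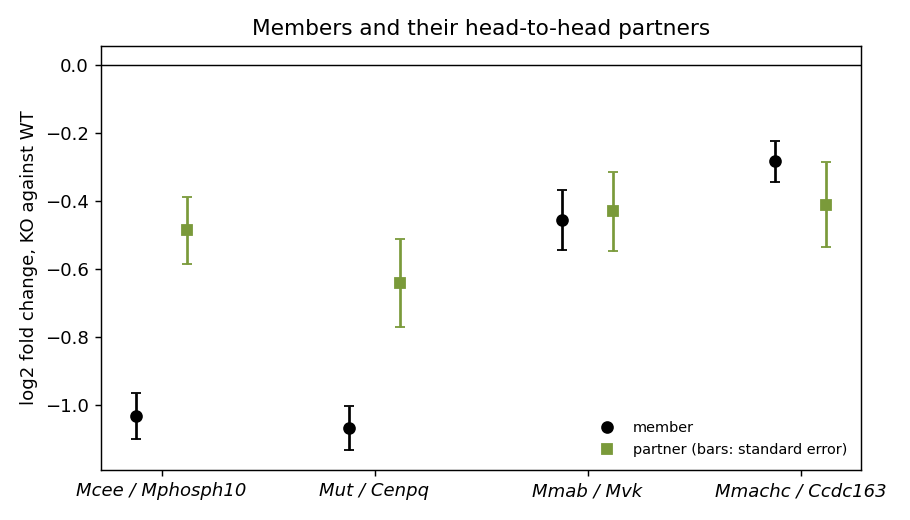
Log2 fold change (y axis, KO against WT) of 4 members (circles) and of the gene that faces each on the other strand (squares), with standard errors. All 8 values lie below 0; those of Mmab (-0.46) and Mvk (-0.43) are alike in size, and those of Mcee and Mut lie below their partners.

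The other genes around the pathway were described from 6 lists. Their counts stand against 25.5% of all rows tested that were lower and 25.6% that were higher. Among the propionyl-CoA sources, which cover branched-chain amino acid breakdown, the last steps of fatty acid oxidation, propionylcarnitine exchange and the transsulfuration route from methionine, 20 of 22 tested genes were lower and 1 (Acox3, log2 fold change 0.21) was higher, with a median log2 fold change of -0.68. Cth, which releases the 2-oxobutyrate that becomes propionyl-CoA, changed most: it was between 2.27 and 3.84 CPM in WT and between 0.577 and 0.937 CPM in KO (log2 fold change -2.15, adjusted p = 1.21e-07). Dbt and Bckdhb, subunits of the branched-chain ketoacid dehydrogenase, had log2 fold changes of -1.54 and -1.50. Acss3, an acyl-CoA synthetase that accepts propionate, was at 3.67 ± 0.579 CPM in WT and 1.37 ± 0.517 CPM in KO (log2 fold change -1.42, adjusted p = 0.000107). Cbs failed the filter on low counts.

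Of 7 tested genes for biotin supply and the other biotin carboxylases, 6 were lower and none higher (median log2 fold change -0.77). Slc5a6, the transporter that brings biotin into cells, fell from 10.9 ± 1.09 to 5.37 ± 1.05 CPM (log2 fold change -1.02, adjusted p = 3.32e-06). Mccc1, the biotin-bearing subunit of methylcrotonyl-CoA carboxylase, had a log2 fold change of -0.88, Acacb of -0.79 and Pcx of -0.77. Hlcs, which attaches biotin to the carboxylases, was at 3.89 ± 0.533 CPM in WT and 3.57 ± 0.657 CPM in KO (adjusted p = 0.513). Acaca was not analysed here.

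For cobalamin uptake and processing, 6 of 10 tested genes were lower and 2 higher (median log2 fold change -0.19). Cubn, an uptake receptor better known from kidney and gut, was low in these hearts and fell from 2.40 ± 0.881 to 0.692 ± 0.316 CPM (log2 fold change -1.78, adjusted p = 0.000296). The groups overlapped for Cubn, with 0.850 to 3.36 CPM in WT and 0.324 to 1.13 CPM in KO. Clybl, a mitochondrial lyase that protects cobalamin from an inhibitor, had a log2 fold change of -0.61, and Cd320, the cell receptor for cobalamin, of -0.40. Abcc1, which exports cobalamin, was higher (log2 fold change 0.38, adjusted p = 0.000482). Mmadhc, which hands cobalamin from MMACHC to both of its enzymes, was at 122 ± 3.62 CPM in WT and 123 ± 7.87 CPM in KO (adjusted p = 0.905). Amn and Lrp2 failed the filter on low counts. Of the 3 regulators of Mmachc transcription, Hcfc1 was higher (log2 fold change 0.25, adjusted p = 5e-04), Thap11 had a log2 fold change of -0.09 (adjusted p = 0.217) and Zfp143 one of -0.06 (adjusted p = 0.688).

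Downstream, the list of producers and users of succinyl-CoA also held Sdha, Sdhb, Sdhc and Sdhd, complex II subunits that act on succinate. Of its 12 genes, 6 were lower and 1 higher (median log2 fold change -0.21). Those lower included Sdha (log2 fold change -0.46), Sdhb (-0.43) and Sdhc (-0.36), while Sdhd (-0.055) was not called. The subunits of succinyl-CoA synthetase were among the lower genes, with log2 fold changes of -0.68 for Suclg2, -0.50 for Suclg1 and -0.47 for Sucla2. Alas1, which uses succinyl-CoA for heme synthesis, was the higher gene, from 74.7 ± 16.8 to 191 ± 13.1 CPM (log2 fold change 1.35, adjusted p = 4.07e-07). Ogdh, which encodes the subunit of the other main producer of succinyl-CoA, was at 1489 ± 112 CPM in WT and 1428 ± 106 CPM in KO (adjusted p = 0.472), and Dlst had an adjusted p of 0.729.

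Among the malonyl-CoA and acyl-CoA side reactions, 4 of 6 tested genes were lower and 1 higher (median log2 fold change -0.40). Mlycd, malonyl-CoA decarboxylase, had a log2 fold change of -0.82, and D2hgdh, which encodes D-2-hydroxyglutarate dehydrogenase, had one of -0.62. Acsf3, a mitochondrial malonyl-CoA synthetase whose human loss causes combined malonic and methylmalonic aciduria, was the higher gene (log2 fold change 0.24, adjusted p = 0.0103). Acod1 failed the filter on low counts. The spans of Cubn, Clybl, Slc5a6, Pcx, Mccc1, Acacb, Bckdhb, Dbt, Cth, Acox3, Alas1, Sdha, Hlcs, Zfp143 and D2hgdh overlap other rows of the table. The sizes of their values are therefore uncertain.

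**Figure D5:**
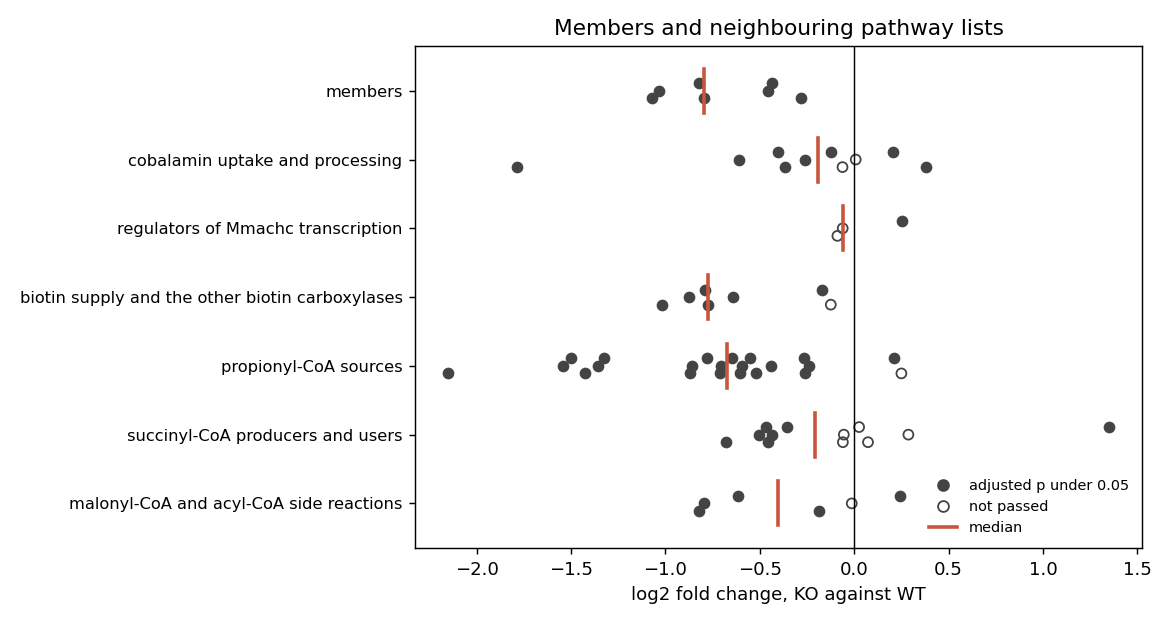
Log2 fold change (x axis, KO against WT) of the 7 members and of every tested gene of the 6 lists, filled where the adjusted p was under 0.05 and open where it was not, with the median of each list as a red line. The members lie between -1.07 and -0.28, and genes to the right of 0 appear in 5 of the 6 lists, with Alas1 at 1.35 the farthest.

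The members were also compared by pattern, as a description, with the 10243 annotated genes tested that had a mean of at least 5 CPM. Over the 12 libraries, the mean standardised level of the members was most like Fyco1 (Pearson r = 0.995, Spearman rho = 0.930), Hrc (0.994 and 0.972), Etfdh (0.994 and 0.958), Clpx (0.993 and 0.923) and Etfa (0.993 and 0.909). The points share the difference between the genotypes, and 1163 of these genes had an r over 0.9. Taking the deviations from the genotype means instead, the closest genes were Mb (r = 0.959), Acat1 (0.956), Hrc (0.953), Lrrc39 (0.952) and Etfdh (0.949). Without KO replicate 3 these 5 values were between 0.822 and 0.877. Among the members themselves, the median r of these deviations over the 21 pairs was 0.30 (range -0.47 to 0.88) and close to 0 without KO replicate 3 (-0.003, range -0.50 to 0.63).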

How the data were processed

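Poly-A mRNA of 6 WT and 6 KO ventricular walls was sequenced. The authors mapped the reads (HISAT2 2.0.5 and build mm10, per the submitters' processing notes), counted them per gene with HTSeq and deposited raw counts. FPKM values, scaled for library size and for lengths that differ from the table's for some members, were also deposited by the authors. Their group means, fold changes and p-values were not used. The identifiers are those of the C57BL/6NJ assembly, and coordinates are given as in the table. Promoter sequences are from RefSeq on GRCm38.p6, matched by symbol.

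R 4.3.3 and edgeR 4.0.16 served for the counts (filterByExpr, TMM, robust quasi-likelihood test of KO against WT, Benjamini-Hochberg adjustment over 17155 rows), with scripts tested on simulated data. Log2 CPM used a prior count of 2. Exact permutation tests used scipy 1.17.1. Groups come from the sample titles. All members were named, as were up to 4 called genes of each list with the largest change, genes that failed the filter, genes beside members and the 5 genes most alike in pattern. A gene of the side reactions that this rule picked is not reported here. Hlcs, Mmadhc, Acox3, Ogdh, Dlst, Sdha, Sdhb, Sdhc, Sdhd, Thap11, Zfp143, Lmbrd1, Btd, Echdc1 and Ggact were chosen after their values were seen. The members and lists were chosen with earlier results of these data known. Alternatives used DESeq2 1.42.0, limma 3.58.1, other normalizations and filters, no unannotated loci, a replicate block, and each library left out in turn. For the ratios FPKM also replaced CPM, which could not change a result, since scaling by length cancels between WT and KO.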

Additional observations from a re-analysis of the deposited data

Results flagged for a closer look

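Dixon's gap test at the 95% level, run on 76 groups of 6 values, marked 1 library as apart in 7 of them, and chance alone marks about 3.8. In KO replicate 3, Pcca was at 70.6 CPM (other KO hearts 45.1 to 50.8), Mmab at 33.8 CPM (21.97 to 25.7) and Clybl at 68.2 CPM (52.9 to 56.6), each on the side of the WT hearts. In WT replicate 6, Hcfc1 was at 70.5 CPM (other WT hearts 60.7 to 64.0) and Mlycd at 223 CPM (258 to 266.5), each on the side of the KO hearts. Cth was at 0.937 CPM in KO replicate 2 (0.577 to 0.684). The log2 ratio of Mcee to Mut was -0.57 in KO replicate 1 (-0.990 to -0.853 in the other KO hearts). The causes were not tested.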

How the results depend on the processing

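The 7 members were lower at 0.05 with DESeq2, limma-voom, other normalizations and filters, without the unannotated loci and without each library. Relative to the summed cardiomyocyte markers, which themselves changed in both directions, 6 of them were lower and Mmachc did not pass (-0.012, exact permutation p = 0.950). The count past both thresholds was between 1 and 2 with each library left out, 1 being without WT replicate 3. With the replicate block, 7 members were again lower, and no call changed among the members and genes named by rule. The ratio of Mmaa to Mut differed by 0.271, which no longer passed (paired exact permutation p = 0.0625, unadjusted). For Pcca/Pccb and for Mmab/Mut the paired exact permutation test gave p = 0.0312, unadjusted, the smallest this pairing allows. Mcee/Mut and Mmachc/Mmab again did not pass. Whether Pcca/Pccb and Mmab/Mut keep their calls with the block after adjustment over the 5 ratios was not tested. With each library left out, the differences ran from 0.14 to 0.28 (Mmachc/Mmab), past the threshold only without KO replicate 3, and from -0.012 to 0.091 for Mcee/Mut, below 0 without WT replicate 6 (-0.006) or KO replicate 1 (-0.012). The genes of the lists and beside members that the naming rule picked kept their direction and side of the threshold (520 values), the marker scaling not being run for them. Lmbrd1 and Btd, counted as lower, kept the call in 2 of 12 fits that left out a library, and Echdc1 in 4. Intervals rest on 6 hearts a group. Equal replicate numbers did not deviate together (r from -0.162 to 0.0243), so they were not taken as pairs.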
